A study of Mus musculus with 2 samples.

Results

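The 36 genes described here encode the core machinery of macroautophagy, its cargo receptors and regulators of it, and were taken by name from a fixed list. That list was chosen with earlier results of these data known, so shares set against those of all genes below are a description. Of the genes listed, 35 of 36 were rows of the table of 15364 genes counted in 640 single mouse neural stem cells. Atg101, a subunit of the initiation complex, had no row of that name. The hippocampal stem cells, taken from C57BL6/J males at 6 weeks of age, were grown as a culture, so each state below is 1 culture of the same wild-type strain. Activated cells grew with FGF-2 and EGF at 20 ng/mL. Quiescent cells had been kept for at least 3 days with BMP-4 at 50 ng/mL and FGF-2, without EGF. For quiescence exit, such cells were returned to the activating medium with the BMP-4 antagonist noggin at 0.5 ug/mL for 24 h or 48 h. Cells were sorted into wells through 4 gates of rising punctate autofluorescence, and their RNA was counted by SORT-seq, which reads the 3′ end of each transcript with a molecular identifier. Culture is itself a limit of the model, since the cells were studied outside their niche, and the number of mice behind the cultures is not given in the sources used here.

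In macroautophagy a membrane grows around cytoplasm, closes and fuses with a lysosome, which digests the content. A kinase complex (Ulk1, Ulk2, Rb1cc1, Atg13, Atg101) starts the process, a lipid kinase complex (Pik3c3, Becn1, Atg14, Uvrag) marks the membrane with PI3P, and WIPI proteins bind that mark. Enzymes related to the ubiquitin cascade (Atg3, Atg5, Atg7, Atg10, Atg12, Atg16l1) then attach LC3 and GABARAP proteins to the membrane, where receptors such as p62, encoded by Sqstm1, dock with their cargo. Quiescent neural stem cells are known for prominent lysosomes and for clearing protein aggregates when they activate.

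The tables held 174 quiescent cells (4815934 counts), 151 cells at 24 h (3046628), 151 at 48 h (4125228) and 164 activated cells (6563487). The study's own text gives 47 cells per condition, fewer than the tables hold. Plate 1 carried the quiescent and 24 h cells and plate 2 the activated and 48 h cells. State and plate can therefore not be told apart in activated against quiescent, 48 h against 24 h, or 48 h against quiescent; the 24 h against quiescent and 48 h against activated comparisons lie within a plate. With 1 culture per state no test between states was possible, and intervals below cover counting error only. All 10 neural stem cell markers had a row, and they summed to between 4381 and 6803 counts per 1000000 (CPM). Sox2 stood at 166.9 to 263.5 CPM, but several others varied more. Prom1 had just 2, 0, 0 and 1 counts in the quiescent, 24 h, 48 h and activated cultures. In that order Fabp7, most of the quiescent sum, was at 4901, 2369, 2152 and 2234 CPM, and Hopx at 25.1, 13.5, 1.94 and 4.72. Nes and Vim went the other way, with Nes at 56.9, 152.4, 402.5 and 657.4 and Vim at 551, 594, 844 and 3036. Of the markers of other cells, microglial ones summed to at most 1.97 CPM, endothelial ones to at most 2.13 and pericyte and fibroblast ones to at most 0.623, while neuronal ones reached 44.9 in the quiescent culture. Oligodendrocyte-lineage markers, mostly Olig1 and Olig2, summed to 1870 to 3665 CPM. The 6 astrocyte markers, several of which quiescent stem cells share, summed to 4339 CPM in the quiescent, 4523 in the 24 h, 1297 in the 48 h and 907 in the activated culture. Aldoc made up most of this sum, at 3245, 2820, 880 and 778 CPM. The sum was higher on plate 1, like the autophagy genes described next, but single markers differed. Aldh1l1 was highest in activated cells (106.4 CPM against 56.9 in quiescent ones). From quiescent to 24 h, Slc1a2 rose from 422 to 1265 and Gfap fell from 72.5 to 17.4. The part of these markers in the results was not tested.

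As a share of all transcripts, autophagy genes stood higher in quiescent cells and at 24 h of exit than at 48 h or in activated cells. The 35 genes together made up 2804 CPM of quiescent and 1571 CPM of activated transcripts, with 2571 CPM at 24 h and 1624 CPM at 48 h between them. Single cells showed the same order, with medians over cells of 2748, 2574, 1608 and 1531 CPM for the summed genes. The quiescent culture held the highest level of 19 genes, the 24 h culture of 11, the activated of 3 and the 48 h of 2. The lowest level was in the activated culture for 22 genes, at 48 h for 10, at 24 h for 3 and in the quiescent culture for none. Highest and lowest cultures were not counted over all genes, so these counts do not show a trait particular to autophagy genes. For 26 of the 35 genes both plate 1 cultures lay above both plate 2 cultures, a pattern that 29.6% of 11559 genes with at least 20 counts had; the 9 others were Atg3, Atg4b, Atg5, Atg16l1, Becn1, Uvrag, Ambra1, Optn and Tfeb.

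**Figure D1:**
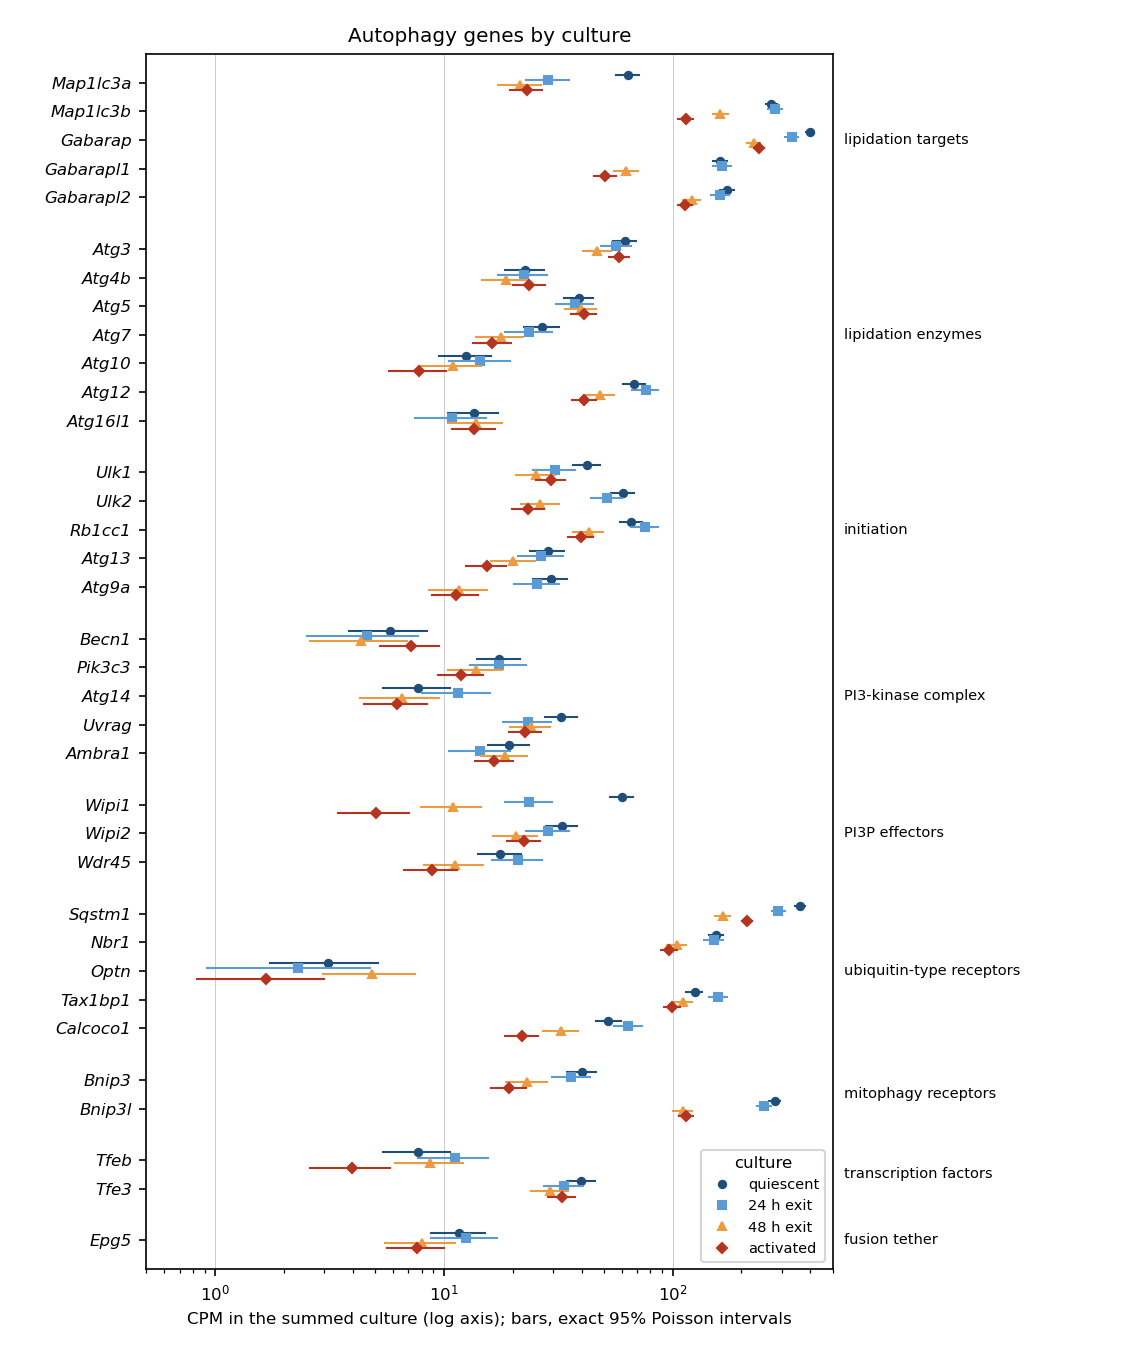
CPM of each of the 35 autophagy genes (log axis) in the 4 cultures, in groups by role; points are culture sums and bars exact 95% Poisson intervals. The LC3 and GABARAP genes, Wipi1 and Bnip3l show the activated culture well below the quiescent one, while the 4 points for Atg5 lie between 37.4 and 40.8 CPM.

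The scale matters for this picture. Set against the spike-in RNA added to every well, activated cells held more transcripts of all kinds, 119 per spike-in count against 76.6 in the quiescent, 55.5 in the 24 h and 87.6 in the 48 h culture. On that scale the 35 genes gave 215, 143, 142 and 186 transcripts per 1000 spike-in counts in the quiescent, 24 h, 48 h and activated cultures. The difference between 24 h and 48 h seen in CPM was absent on that scale, and the activated culture stood above both exit cultures. A lower share of transcripts therefore did not always go with fewer autophagy transcripts per well.

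**Figure D2:**
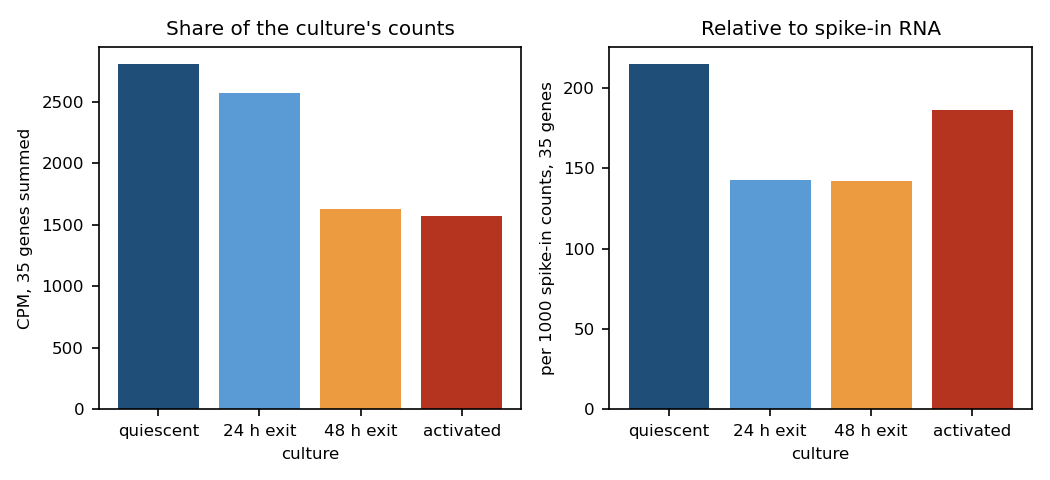
The 35 autophagy genes summed in each culture, as CPM (left) and as transcripts per 1000 spike-in counts (right); bars start at 0 and each is 1 culture, with no replicate. On the left the 48 h and activated cultures (1624 and 1571) lie well below the other 2, and on the right the activated culture (186) lies nearer the quiescent one (215).

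Activated cells were compared with quiescent cells first, as log2 ratios of CPM with 10 CPM added to each. Of the 35 genes 31 had a ratio below 0, against 44.9% of all genes measured, and 15 were more than 1.5-fold lower, against 14.3% of 11011 genes measured; none was 1.5-fold higher, against 19.8%. The median ratio was -0.48 for autophagy genes and 0.07 for all genes, and 26 intervals lay wholly below 0, as for 29.0% of all genes. Groups differed: the 5 LC3 and GABARAP genes had a median of -1.16 and both mitophagy receptors lay past 1.5-fold lower, while the 7 lipidation enzymes had a median of -0.07 and the 5 lipid kinase genes of -0.14. Ratios ran from -2.22 for Wipi1 to 0.12 for Becn1, a scaffold of the lipid kinase complex. Per spike-in count the median was -0.054, beside 0.47 for all genes, with 5 genes more than 1.5-fold lower, against 6.72%, and none higher, against 42.5%.

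Within plate 1, 24 h of exit left most autophagy genes near their quiescent level. Just 2 of 35 genes were more than 1.5-fold lower, Wipi1 at -1.05 and Map1lc3a at -0.94, against 6.28% of 10462 genes, and none was 1.5-fold higher, against 4.53%. The median was -0.09, beside -0.01 for all genes. Intervals lay above 0 for the receptors Tax1bp1 (0.32) and Calcoco1 (0.25), 2 of 35 against 16.8% of all genes, and below 0 for 7 genes, a share of 20.0% that is near the 19.2% of all genes. Relative to spike-ins the median was -0.40, beside -0.29 for all genes, and the 7 genes past 1.5-fold lower were again near the share of all genes, 17.1%.

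Between 24 h and 48 h, across the plates, 30 of 35 genes were lower at 48 h and 9 were more than 1.5-fold lower, against 9.89% of 10324 genes. The median ratio was -0.33, beside -0.03 for all genes, and 18 intervals lay below 0, against 25.5% of all genes, and none above, against 24.6%. Gabarapl1 (-1.26) and Bnip3l (-1.12) had the lowest ratios. From the quiescent to the 24 h culture their ratios had been 0.03 and -0.14. On the spike-in scale the median was 0.13, below the 0.38 of all genes; 1 gene was past 1.5-fold lower, against 1.89%, and none higher, against 32.6%.

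Within plate 2, the 48 h culture was close to the activated one. No autophagy gene was 1.5-fold higher at 48 h, against 3.99% of 10780 genes, and none 1.5-fold lower, against 7.96%. The median ratio was 0.09, beside -0.08 for all genes. Intervals lay above 0 for 6 genes, namely Wipi1 (0.48), Map1lc3b (0.47), Tfeb (0.42), Calcoco1 (0.41), Optn (0.35) and Gabarapl1 (0.26), and below 0 for Sqstm1 (-0.34) and Atg3 (-0.27). The 6 of 35 above 0 were near the 15.8% of all genes, and the 2 of 35 below 0 stood against 30.9%. Per spike-in count the median was -0.23, beside -0.38 for all genes. Across the plates, 48 h against quiescent, 10 genes were more than 1.5-fold lower, against 11.6% of 10663 genes, with a median of -0.41 beside -0.02. These comparisons share cultures and are not independent of each other.

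**Figure D3:**
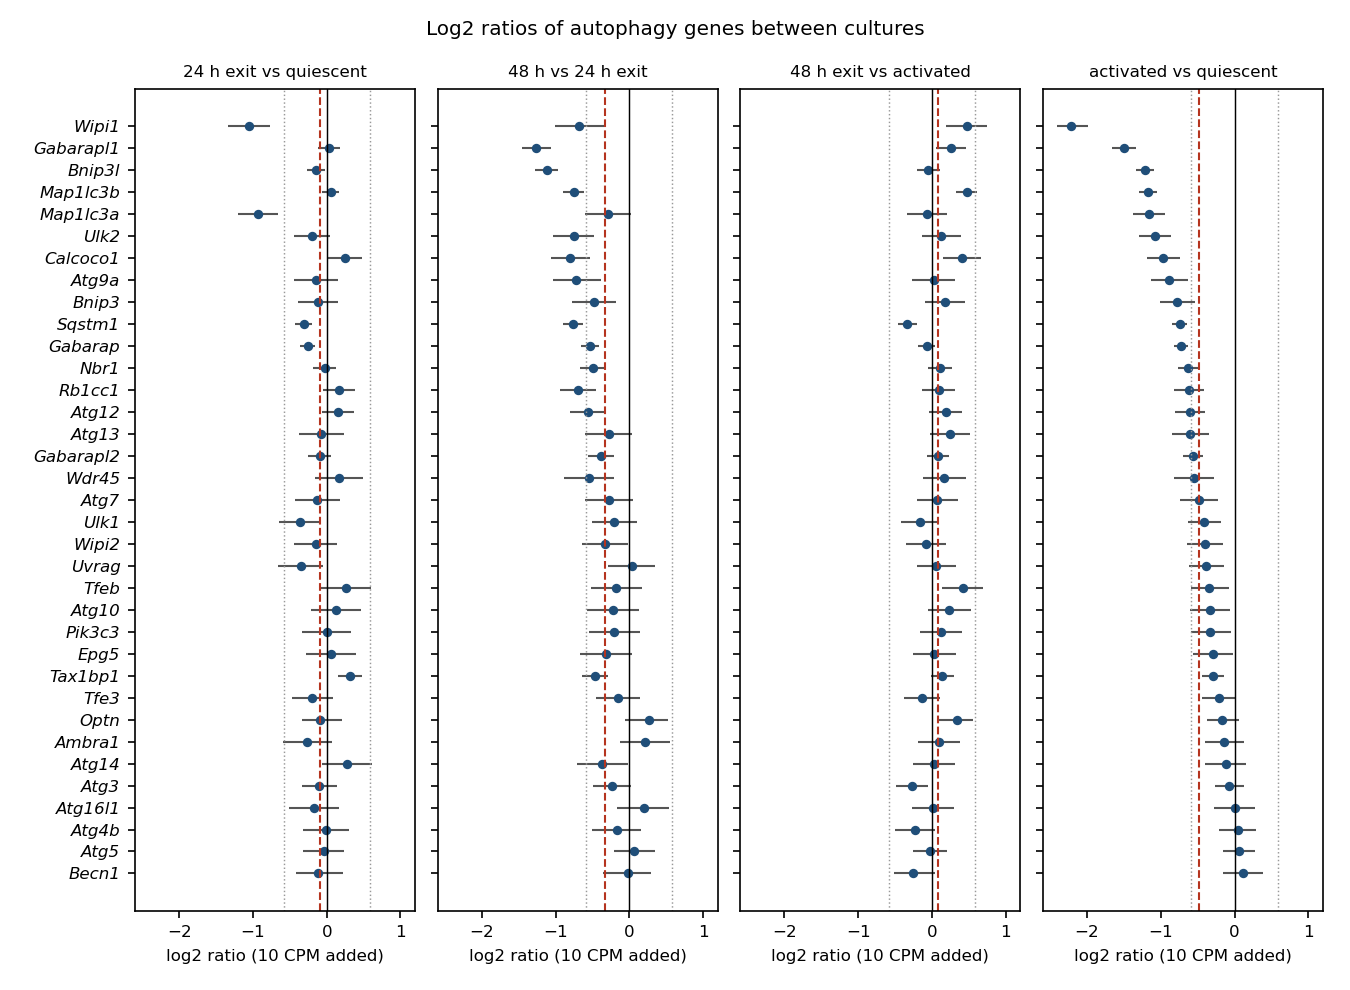
Log2 ratio of CPM (10 CPM added) of each autophagy gene in 4 comparisons of cultures, sorted by the activated against quiescent ratio; bars are 95% counting intervals, dotted lines mark 1.5-fold and the red dashed line the median of the 35 genes. The medians sit at -0.09, -0.33, 0.09 and -0.48 from left to right.

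Wipi1, which binds PI3P on the forming membrane, had the widest spread between cultures. Its level was 59.8 CPM in quiescent cells, 23.6 after 24 h of exit, 10.9 after 48 h and 5.03 in activated cells, each culture lying below the one before. The 4 counting intervals did not overlap, but they cover counting error only. The share of all genes with 4 separate intervals was not counted, so this does not set Wipi1 apart. For the activated against quiescent ratio alone, intervals lay below 0 for 29.0% of all genes and above 0 for 38.4%. Its ratio was the lowest of the 35 genes at 24 h against quiescent and the highest at 48 h against activated, both within a plate. Shares of cells with a Wipi1 transcript lay in the same order. After thinning every cell to 12748 transcripts, which left out 18, 29, 11 and 6 shallower cells, they were 51.3% in the quiescent, 23.8% in the 24 h, 13.6% in the 48 h and 3.16% (exact 95% binomial interval 1.04% to 7.23%) in the activated culture, and without thinning 72.4%, 38.4%, 23.8% and 16.5%. Its relatives varied less: Wipi2, which recruits Atg16l1, stood at 32.8, 28.6, 20.6 and 22.4 CPM, and Wdr45 at 17.7, 21.0, 11.2 and 8.84, in the same order of cultures.

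The LC3 and GABARAP genes encode the proteins joined to the membrane. Map1lc3b was level at 270 CPM in the quiescent and 280 at 24 h, then 162 at 48 h and 114 in the activated culture. Gabarapl1 followed the same course, with 161, 165, 62.8 and 50.6 CPM. Both therefore stepped down between the plates, and both were also higher at 48 h than in activated cells of the same plate. Map1lc3a differed from its paralog: it was 63.8 CPM in quiescent cells and already 28.6 at 24 h, with 21.6 at 48 h and 23.0 in activated cells. Gabarap stood at 399, 332, 226 and 238 CPM, and Gabarapl2 at 173, 161, 121 and 114. Paralogs can share reads where their 3′ ends are alike, and how such reads were assigned is not given in the sources used here.

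Among the 7 lipidation enzymes 4 had activated against quiescent intervals that held 0, namely Atg3, Atg4b, Atg5 and Atg16l1. Atg5, which forms the ligase with Atg12, was at 38.8, 37.4, 39.8 and 40.8 CPM in the quiescent, 24 h, 48 h and activated cultures. Atg3, the enzyme that transfers LC3 to lipid, stood at 61.7, 56.8, 46.8 and 58.4, Atg4b, a protease that trims LC3, at 22.6, 22.3, 18.7 and 23.6, and Atg16l1, the scaffold of the ligase, at 13.5, 10.8, 13.8 and 13.6. Within this group Atg12, the ubiquitin-like partner of Atg5, was the gene past 1.5-fold, with 67.7, 76.2, 48.3 and 41.1 CPM and an activated against quiescent ratio of -0.60. Atg7, which activates LC3 and Atg12, gave 26.8, 23.6, 17.7 and 16.3, and Atg10, which joins Atg12 to Atg5, gave 12.5, 14.4, 10.9 and 7.77.

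Promoter sequences were read for the genes that had a RefSeq window of 300 bases, from 250 before to 50 after the annotated start (GRCm38.p6); 28 of the 36 had one, in 33 windows. The E-box CACGTG, the core of the site that TFEB and TFE3 bind, was in the windows of 5 of these 28 genes, namely Atg3, Atg5, Atg7, Atg14 and Bnip3, and in those of 8.09% of all 27025 genes with a window. Atg3 alone held the longer TCACGTGA, which contains the E-box and was found for 1.12% of genes. Both strands were searched. The letters ACGTG, part of the E-box and the core of the hypoxia response element, were in 12 genes, against 21.8% of all, TGACNNNGC, the core of the antioxidant response element, in 4 genes, against 14.0%, and the forkhead motif GTAAACA in none, against 4.05%. A match describes letters and not binding. The 150 bases before the start are shown for 4 genes with the E-box, in capitals, and for Map1lc3b and Wipi1, the first called between gates below and the second the gene with the widest spread between cultures, whose windows lacked it. They lie at chr16:45158679-45158828 on the plus strand (Atg3), chr10:44268189-44268338 plus (Atg5), chr6:114670946-114671095 plus (Atg7), chr7:138909507-138909656 minus (Bnip3), chr8:121590288-121590437 plus (Map1lc3b) and chr11:109611390-109611539 minus (Wipi1).
Atg3: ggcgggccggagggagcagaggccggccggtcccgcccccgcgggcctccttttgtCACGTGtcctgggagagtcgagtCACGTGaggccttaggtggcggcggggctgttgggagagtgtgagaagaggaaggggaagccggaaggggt
Atg5: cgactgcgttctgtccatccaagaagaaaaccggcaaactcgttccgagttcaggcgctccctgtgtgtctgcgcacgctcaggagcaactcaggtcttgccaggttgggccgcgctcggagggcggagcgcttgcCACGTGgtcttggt
Atg7: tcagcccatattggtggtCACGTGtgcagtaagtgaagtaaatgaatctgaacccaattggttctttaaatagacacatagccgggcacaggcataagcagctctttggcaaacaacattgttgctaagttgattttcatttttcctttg
Bnip3: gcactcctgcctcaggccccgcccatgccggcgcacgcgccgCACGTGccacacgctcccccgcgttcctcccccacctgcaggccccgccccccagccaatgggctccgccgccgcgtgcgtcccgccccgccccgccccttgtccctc
Map1lc3b: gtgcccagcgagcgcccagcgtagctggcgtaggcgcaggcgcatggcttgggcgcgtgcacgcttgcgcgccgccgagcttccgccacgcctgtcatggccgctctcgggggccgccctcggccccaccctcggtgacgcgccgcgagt
Wipi1: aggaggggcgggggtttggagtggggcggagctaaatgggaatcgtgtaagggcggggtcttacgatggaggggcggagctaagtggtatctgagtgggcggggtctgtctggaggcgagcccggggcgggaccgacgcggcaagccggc
The 5 genes with an E-box had activated against quiescent ratios of -0.07 (Atg3), 0.06 (Atg5), -0.48 (Atg7), -0.12 (Atg14) and -0.78 (Bnip3).

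Initiation genes were lower in activated than in quiescent cells in all 5 cases, against 44.9% of all genes, with a median of -0.62. Ulk2, a kinase that starts autophagy, stood at 60.7, 51.5, 26.4 and 23.3 CPM in the quiescent, 24 h, 48 h and activated cultures. Ulk1, its paralog, was lower already at 24 h, with 42.2, 30.5, 25.2 and 29.3. Rb1cc1, the scaffold FIP200, gave 66.1, 75.5, 42.9 and 39.6, Atg13, the adaptor of the kinase, 28.5, 26.6, 20.1 and 15.4, and Atg9a, which carries membrane in vesicles, 29.3, 25.6, 11.6 and 11.3. RefSeq gives 9430023L20Rik as a synonym of Atg101; the row of that name stood at 23.9, 21.3, 16.7 and 18.6 CPM; it was left out of every count above.

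Lipid kinase genes had smaller median ratios between cultures than initiation genes. Their levels were mostly lower too, and the 10 CPM added understates the ratios of low genes. Pik3c3, the kinase, stood at 17.4, 17.4, 13.8 and 11.9 CPM, Uvrag, a subunit of the complex on late endosomes, at 32.6, 23.3, 24.0 and 22.7, and Ambra1, a regulator of Becn1, at 19.3, 14.4, 18.4 and 16.6. Becn1 and Atg14 had 107 and 140 counts in all. Epg5, a tether for fusion with the lysosome, had 177 counts, Tfeb, a transcription factor of lysosomal and autophagy genes, 133, and the receptor Optn 53. Tfe3, the relative of Tfeb, was at 39.9, 33.5, 29.1 and 32.9 CPM.

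All 5 ubiquitin-type receptors had activated against quiescent ratios below 0, against 44.9% of all genes. Of the 5, 3 were more than 1.5-fold lower, against 14.3%. Sqstm1, whose protein p62 binds ubiquitin and LC3, was at 361 CPM in quiescent cells, 289 after 24 h, 166 after 48 h and 212 in activated cells, so its lowest level was at 48 h. Nbr1, a related receptor, was at 155, 151, 105 and 96.5. Tax1bp1 and Calcoco1, which share a domain, had their highest levels at 24 h, with 125, 158, 111 and 99.7 CPM and 52.3, 64.0, 32.5 and 21.9. Bnip3l, a receptor on mitochondria, gave 279, 252, 111 and 115, and its paralog Bnip3 gave 40.1, 36.1, 23.0 and 19.2. Both are also targets of hypoxia signalling, whose part in their levels was not tested. The 14 other hypoxia targets measured between activated and quiescent cells had a median of -0.13 and a range from -1.90 to 4.03. Ratios were below 0 for 10 of 14, against 44.9% of all genes. Of the 14, 5 (35.7%) were more than 1.5-fold lower, against 14.3%, and 1 was higher, against 19.8%.

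Further genes of the pathway mostly had ratios below 0 as well, of smaller size. Of 88 listed, 83 had a row and 76 were measured between activated and quiescent cells. Ratios were below 0 for 55 of 76, against 44.9% of all genes, with a median of -0.19 beside 0.07. More than 1.5-fold lower were 15 (19.7%), not far from the 14.3% of all genes, and 3 (3.95%) were higher, against 19.8%. Pink1, a kinase that marks damaged mitochondria, had the lowest ratio of the selective receptor list at -2.06, and Phb2, a mitochondrial inner membrane protein, the highest at 1.05. Among early autophagosome genes, Sh3glb1 stood at -0.73 and Vmp1, a membrane protein of the endoplasmic reticulum, at 0.62. Lysosomal genes were lower as well, with 20 of 25 below 0 and a median of -0.57, led by the proteases Ctsb (-1.79) and Ctsd (-1.71). Of the 25, 12 (48.0%) were more than 1.5-fold lower, against 14.3% of all genes, and 1 was higher, against 19.8%.

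Within the 48 h culture, on 1 plate, cells differed among themselves. The authors' clusters split it into 41 cells of cluster 0, which also held 145 of the 151 cells at 24 h, and 109 cells of cluster 3. Clusters and phases were made from these same counts, so levels in them are a description. Gabarapl1 was 100.3 CPM in cluster 0 and 49.4 in cluster 3, and Map1lc3b 227 and 139; these were the 2 of 34 genes more than 1.5-fold higher, against 3.12% of 9390 genes. Bnip3l had 110.6 CPM in cluster 0 and 110.9 in cluster 3. Cluster 0 cells themselves differed across the plates: 7 of 33 genes were more than 1.5-fold lower at 48 h than at 24 h, against 11.0% of 9234 genes, none was higher, against 4.79%, and the median ratio was -0.31 beside -0.10 for all genes. By the authors' phase calls, 22 cells at 48 h were in G0, and in them Gabarapl1 was 132.6 CPM against 52.4 in the other phases, Map1lc3b 263 against 147, Rb1cc1 69.1 against 39.0 and Nbr1 155 against 97.0. These 4 of 34 were more than 1.5-fold higher, against 5.81% of 9399 genes, and Epg5, on 1 count in G0, was lower, against 18.8%. The summed genes gave 1993 CPM in G0, 1766 in G1, 1538 in G2/M and 1530 in S at 48 h, and 1827 in G1, 1528 in G2/M and 1508 in S in the activated culture. Median autofluorescence was 8330 units in cluster 0 and 4709 in cluster 3 at 48 h.

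**Figure D4:**
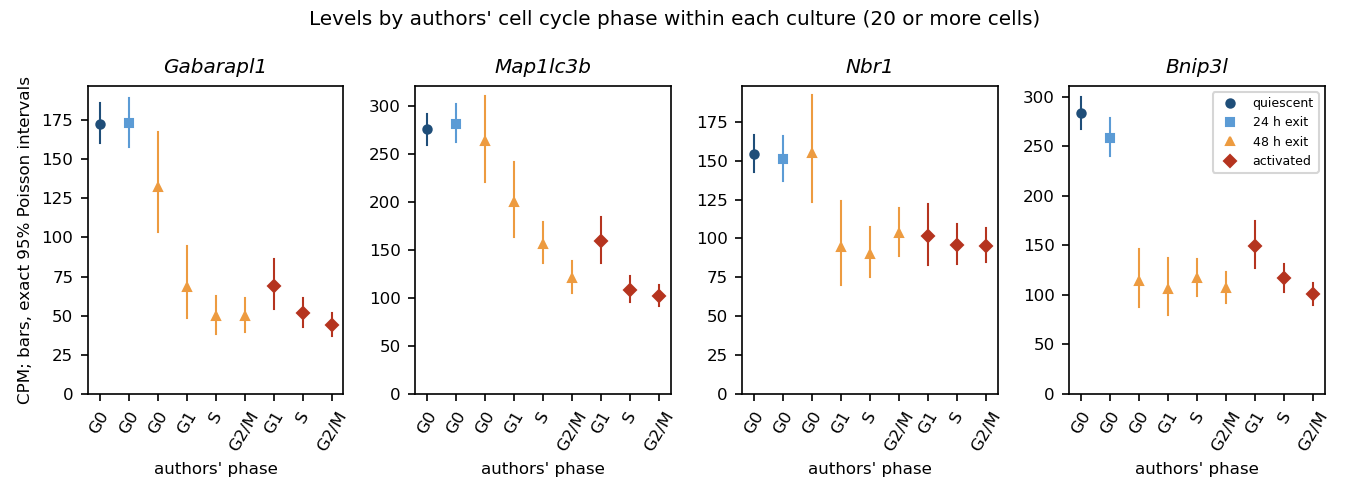
CPM of 4 autophagy genes by the authors' cell cycle phase within each culture, for phases with at least 20 cells in that culture. Bars are exact 95% Poisson intervals. The quiescent and 24 h cultures show G0 alone, and the activated culture shows G1, S and G2/M. At 48 h Gabarapl1, Map1lc3b and Nbr1 are highest in G0 (132.6, 263 and 155 CPM), whereas Bnip3l lies between 105.6 and 116.5 CPM in the 4 phases at 48 h.

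Autofluorescence gates were the 1 contrast with replication, since each of the 4 cultures supplied every gate. Map1lc3b rose with autofluorescence, and its level was higher in the high than in the low gate of every culture. Its scaled level in the low, low-mid, mid-high and high gates was 236, 251, 266 and 330 CPM in quiescent cells, 230, 260, 338 and 319 at 24 h, 151, 154, 159 and 202 at 48 h, and 80.4, 111, 113.5 and 113.6 in activated cells. High against low, it was higher by 0.46 on the log2 scale (SE 0.12, adjusted p = 0.0446, edgeR quasi-likelihood test with culture as a block). It was the 1 gene called of 31 tested, against 2.38% of 8739 genes (1.9% upward and 0.481% downward). Leaving out any 1 culture, DESeq2, thinned counts, deeper cells or a fit without the block each left no autophagy gene called, with adjusted p for Map1lc3b from 0.0595 to 0.232 where the block was kept and 0.9997 without it.

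The linear trend over all 4 gates called 3 of 31 genes, each upward, against 7.14% of 8934 (4.67% upward and 2.47% downward). Map1lc3b rose by 0.15 per gate (SE 0.032, adjusted p = 0.00224), the mitophagy receptor Bnip3 by 0.24 (SE 0.062, adjusted p = 0.0111) and Gabarap by 0.097 (SE 0.030, adjusted p = 0.0431), all by edgeR with Benjamini-Hochberg adjustment over all genes. High against low, Bnip3 stood higher by 0.56, 0.21, 0.74 and 0.63 and Gabarap by 0.28, 0.11, 0.47 and 0.28 in the quiescent, 24 h, 48 h and activated cultures, positive in 4 of 4. Without the 48 h or the activated culture, 1 gene was called in place of 3, and with RLE size factors in edgeR 2 were, Gabarap then having an adjusted p of 0.0517. Gabarapl1 gave 0.19, 0.23, 0.89 and -0.14 and Sqstm1 0.15, -0.03, 0.23 and 0.14, and neither was called. Among genes outside the list, Pink1 (0.24 per gate), Ctsd (0.21) and Lamp1 (0.14) were called upward too, as were 4.67% of all genes. They were picked from longer lists, for which the number called is not given here, and so do not describe those lists. Depth moved with the gates: the median transcripts per cell were 18910 in the low and 40452 in the high gate of quiescent cells, and 25566 and 55395 in activated ones. The share of cells called G0 at 48 h was 0 of 42 cells in the low gate, which allows a share of up to 7.14%, and 32.5% in the high one. In the trend 4 of 6 astrocyte markers were called upward, against 4.67% of all genes. The number called among other cell markers is not given here. Summed, the astrocyte markers were at 4642 CPM in the low and 4011 in the high gate of quiescent cells. They were at 2774 and 5156 at 24 h, 815 and 1855 at 48 h, and 724 and 959 in activated cells. The part of depth, G0 share and these markers in the gate results was not tested beyond thinning to equal depth, under which Map1lc3b alone was called in the trend.

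**Figure D5:**
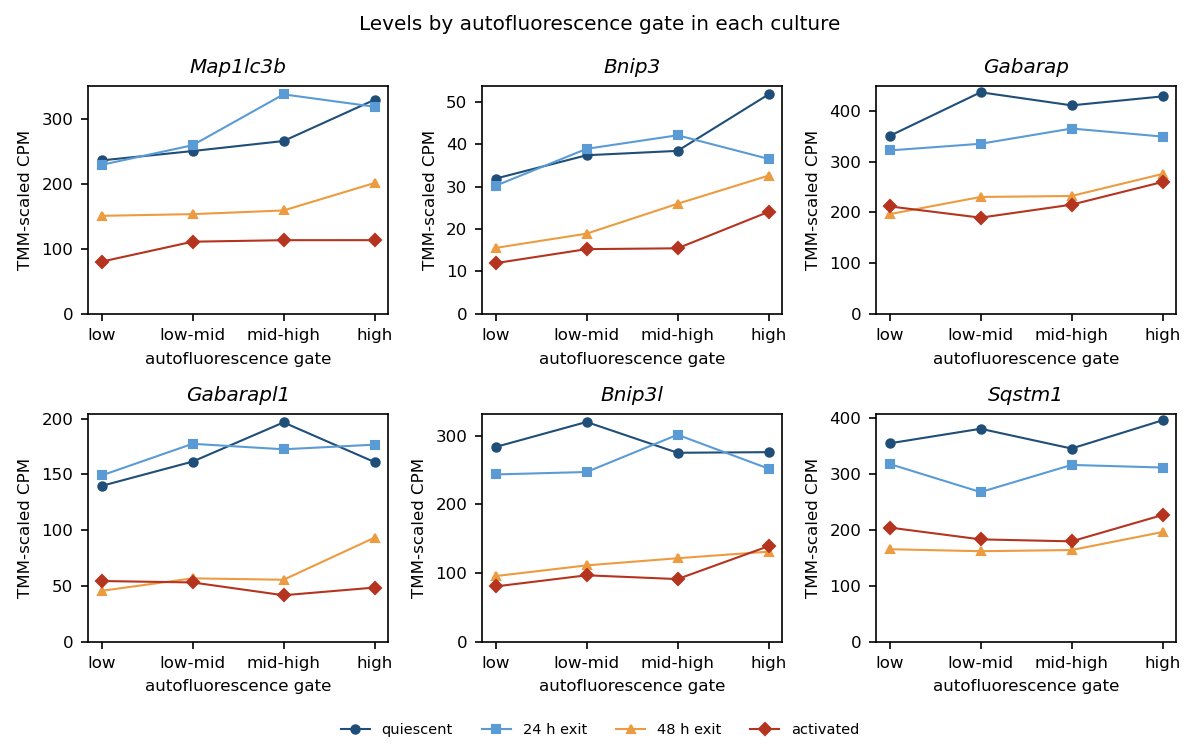
TMM-scaled CPM of 6 autophagy genes by autofluorescence gate, 1 line per culture; each point is the sum of 1 gate's cells. Map1lc3b, Bnip3 and Gabarap are higher in the high than in the low gate in all 4 cultures, while the lines of Sqstm1 and Bnip3l differ in direction between cultures.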

How the data were processed

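Per the labels' protocols, cells were sorted into 2 plates of 384 wells and each plate was made into 1 SORT-seq library; the same well barcodes served both plates. The submitters' processing notes name Seurat 4.1.1, R 4.2.0 and BWA 0.7.15 and the builds mm10 and hg19; their settings, the filter on cells and any treatment of doublets are not given in the sources used here. The authors deposited expected counts, that is identifier counts corrected for molecules sharing 1 of 4096 identifiers, which inverted to whole identifier counts within 4.8e-05. The authors' per-cell table gives the count of genes, the percent of mitochondrial and ribosomal protein transcripts, a score for each cell cycle phase, fluorescence intensity in arbitrary units, cluster, phase, condition and gate. Spike-in counts came from the plate tables, as deposited.

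Counts were summed per culture and divided by the total to give CPM. Genes with at least 20 counts in the 2 cultures were compared as log2 ratios with 10 CPM added, which understates the ratios of low genes. Intervals are exact (95%), Poisson for a level and conditional binomial for a ratio. For the gates, rounded sums per culture and gate were tested with edgeR 4.0.16 (TMM, filterByExpr, quasi-likelihood test, blocked by culture, Benjamini-Hochberg adjusted p below 0.05). The 4 cultures are 4 different states, so the test seeks a change common to them, with 3 residual degrees of freedom for high against low and 11 for the trend, where the 4 gates of a culture are not independent of each other. On totals the median ratio of all genes, high against low, was -0.19, -0.05, -0.16 and -0.03 in the quiescent, 24 h, 48 h and activated cultures, and after TMM at most 0.02. DESeq2 1.42.0 was an alternative. All 35 genes are accounted for; those with at least 200 counts are named with levels, the rest with totals unless past 1.5-fold or named by an interval. Members and lists were chosen with earlier results of these data known. Scripts were tested on simulated data. Sequences are from RefSeq.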

Additional observations from a re-analysis of the deposited data

Results flagged for a closer look

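Wipi1 stood apart in 1 culture in the gate comparison. Its log2 ratio of high to low gate was 0.13 in the quiescent culture and 0.57, 0.59 and 0.52 in the 24 h, 48 h and activated cultures, and the gap between the quiescent value and the nearest other passed Dixon's 95% critical value for 4 samples. Of 31 genes examined this was the 1 found. Chance alone flags about 1 gene in every 20 examined, so 1 flag among 31 is no more than chance gives. The scaled quiescent levels of Wipi1 were 50.6, 69.3, 70.6 and 56.3 CPM from the low to the high gate.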

How the results depend on the processing

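Medians below are log2 ratios and counts are of genes past 1.5-fold, over all 35 genes unless fewer are given as measured. Activated against quiescent, the median was -0.67 with 1 CPM added, -0.22 with 50 CPM (8 genes), -0.054 per spike-in count (5 genes), and -0.75, -0.64 and -0.65 in the low, low-mid and mid-high gates alone (28, 32 and 32 measured). At 24 h against quiescent it was -0.40 per spike-in count (7 genes), -0.23 (7 of 29) and -0.22 (33 measured) in the low and low-mid gates, and 0 genes passed with 50 CPM and 4 of 32 in the mid-high gate. At 48 h against 24 h it was -0.45 with 1 CPM (14 genes), -0.14 with 50 CPM (4 genes), -0.48 for the 28 genes with 100 or more counts, -0.46 in thinned cells (33 measured), -0.48 (26 measured) and -0.55 (14 of 29) in the low and low-mid gates, and turned to 0.13 per spike-in count (1 gene). At 48 h against activated it turned to -0.23 per spike-in count (2 genes) and -0.014 in the low-mid gate (3 of 28), and was 0.21 without mitochondrial and ribosomal protein genes in the total (2 genes) and 0.19 in the mid-high gate (30 measured); 4 genes passed with 1 CPM, 2 of 34 in thinned cells, 4 of 27 in the low gate and 3 of 34 in the high gate. At 48 h against quiescent it was -0.21 with 50 CPM, -0.27 per spike-in count, and -0.57 (29 measured) and -0.65 (18 of 32) in the low and low-mid gates. The cause of these shifts was not tested.

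For high against low gate, 0 genes were called by DESeq2, in thinned cells, without the shallower cells, without any 1 culture (0 to 0), and with no replicate block, and 2 without a filter on low counts. For the trend, 2 were called with RLE size factors, 1 in thinned cells, 1 to 3 without any 1 culture, and 0 with no replicate block. DESeq2 gave no adjusted p for 6099 of 8739 genes in the first test. Of 606 single-gene gate alternatives 53 changed sign, all for genes not called. Low counts limit Optn, Becn1, Tfeb, Atg14 and Epg5, and Becn1, Optn, Tfeb and Atg14 were too low for the gate tests. No gene past 1.5-fold between cultures changed sign under any alternative run.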
